A study of Mus musculus with 19 samples.

Results

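The comparison described here sets 3 libraries labelled MYC_OFF against 5 labelled MYC_HCC, all from mouse liver tumor tissue. HCC stands for hepatocellular carcinoma, the main cancer of hepatocytes. Every gene symbol that was not a bare number and had a value of at least 1 in at least 3 of these 8 libraries was taken, which gave 12087 of 19486 genes in the table. The whole series holds 19 libraries in 5 groups, and 3 libraries labelled MYC_Recur are shown beside some results because they come from the same deposit as MYC_OFF. The labels give no allele, strain, animal, age, treatment or time for any group, so how MYC was switched off, and for how long, is not given in the sources used here. All groups share the tissue, flash freezing, a Qiagen RNeasy extraction and BGI library preparation. The labels do not say that libraries of a group come from separate animals, so the p-values measure only the spread between these samples, which may be technical. Per the labels, MYC_HCC is a re-analysis of older samples while MYC_OFF is new, so group and deposit cannot be told apart in this comparison.

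MYC is a transcription factor that binds DNA as a pair with MAX, often at the letters CACGTG, known as an E-box. MXD proteins, MNT and MGA also pair with MAX and oppose MYC at the same sites. MYC is best known for driving ribosome production, nucleotide and amino acid supply, mitochondrial activity and cell division. Mouse liver tumors driven by a MYC transgene have been used to study oncogene addiction, in which tumors stop growing when the oncogene is turned off.

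Deposited values summed to between 516133 and 629906 in MYC_HCC and to between 563456 and 600407 in MYC_OFF. The table is not in counts and its unit is not given, so the depth of each library is unknown. The median value over the genes tested was 8.86 to 9.86 in MYC_HCC, against 8.38, 5.79 and 5.71 in MYC_OFF 1, 2 and 3. Summed over its 10 top genes, a library held 6.95% to 8.56% of its total in MYC_HCC and 21.0% to 28.8% in MYC_OFF. Results are therefore given as deposited and with 4 rescalings of the libraries: a trimmed mean of M values, a median of ratios, the upper quartile and equal totals. MYC_HCC 4 stood apart from the other MYC_HCC libraries in many liver and endothelial genes. Of 253 genes looked at, it lay far from the rest in 29, and MYC_HCC 2, 3 and 5 did so in 2 each. For the lists and genes that moved most, values are also given with MYC_HCC 4 and 5 both left out. These counts do not single out MYC_HCC 5.

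Myc itself was lower in every MYC_OFF library than in any MYC_HCC library. Its values were 158, 180, 165, 129 and 166 in MYC_HCC 1 to 5 and 59.8, 33.9 and 43.4 in MYC_OFF 1 to 3. The groups did not overlap, and MYC_OFF 1 was the highest of its group. The mean fell from 160 ± 19.2 (SD, n = 5) to 45.7 ± 13.1 (SD, n = 3), a log2 change of -1.81 with a standard error of 0.20 (limma, Benjamini-Hochberg adjusted p = 6.75e-07). After rescaling, the log2 change lay between -1.85 with equal totals and -1.25 with the median of ratios. In the 3 MYC_Recur libraries Myc stood at 159, 156 and 152, so within the newer deposit MYC_OFF was lower by a log2 difference of -1.78 (limma, adjusted p = 5.15e-06). The mouse Myc gene lies on chromosome 15 at 61985391 to 61990374 (GRCm38, plus strand). Whether reads of a transgene could count towards this symbol is not given in the sources used here. In tumor tissue, fewer cells that express a gene and less RNA per cell cannot be told apart, here or below.

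Of 12 tested genes of the MYC partner network, 5 were called lower and 4 higher as deposited, at an adjusted p under 0.05. Over all 12087 genes, 43.1% were called lower and 17.5% higher. Max, the partner that MYC needs to bind DNA, was the member with the largest fall. It read 49.3, 57.2, 74.5, 39.5 and 46.6 in MYC_HCC and 4.43, 6.44 and 5.41 in MYC_OFF, a log2 change of -3.06 (SE 0.30, limma adjusted p = 3.2e-07). The groups were far apart, and the MYC_Recur libraries, at 49.6, 33.6 and 86.9, were at the MYC_HCC level. Max lies on chromosome 12 at 76937269 to 76962201 (GRCm38, minus strand). Mxd3, an MXD family member tied to proliferating cells, fell from 50.9 ± 24.3 to 10.8 ± 3.82. Mlxipl, which encodes the glucose-responsive factor ChREBP, fell from 23.1 ± 6.86 to 7.76 ± 1.45. Mxd4 was also lower as deposited (log2 change -1.01), but not with the median of ratios (-0.53).

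The antagonists of MYC among these genes mostly went the other way. Mnt, at chromosome 11, 74830920 to 74845725 (GRCm38, plus strand), read 7.5, 24.0, 13.7, 5.36 and 7.34 in MYC_HCC and 615, 67.7 and 79.8 in MYC_OFF. All 3 MYC_OFF libraries exceeded every MYC_HCC library, but MYC_OFF 1 was several times the other members of its group. The log2 change was 3.77 (SE 0.71, limma adjusted p = 0.000188). Mga showed the same order, at 212, 44.4 and 16.8 in MYC_OFF against 6.63 to 15 in MYC_HCC. Mxi1 rose from 13.6 ± 2.39 to 26.5 ± 8.13. Mxd1 rose from 1.57 ± 0.501 to 10.8 ± 11.5, a call that was lost when MYC_OFF 1 was left out. These 4 rises were called as deposited and with all 4 rescalings. Mlx and Mlxip, partners in the glucose-sensing branch, had log2 changes of 0.41 and -0.09 and did not pass the test.

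**Figure D1:**
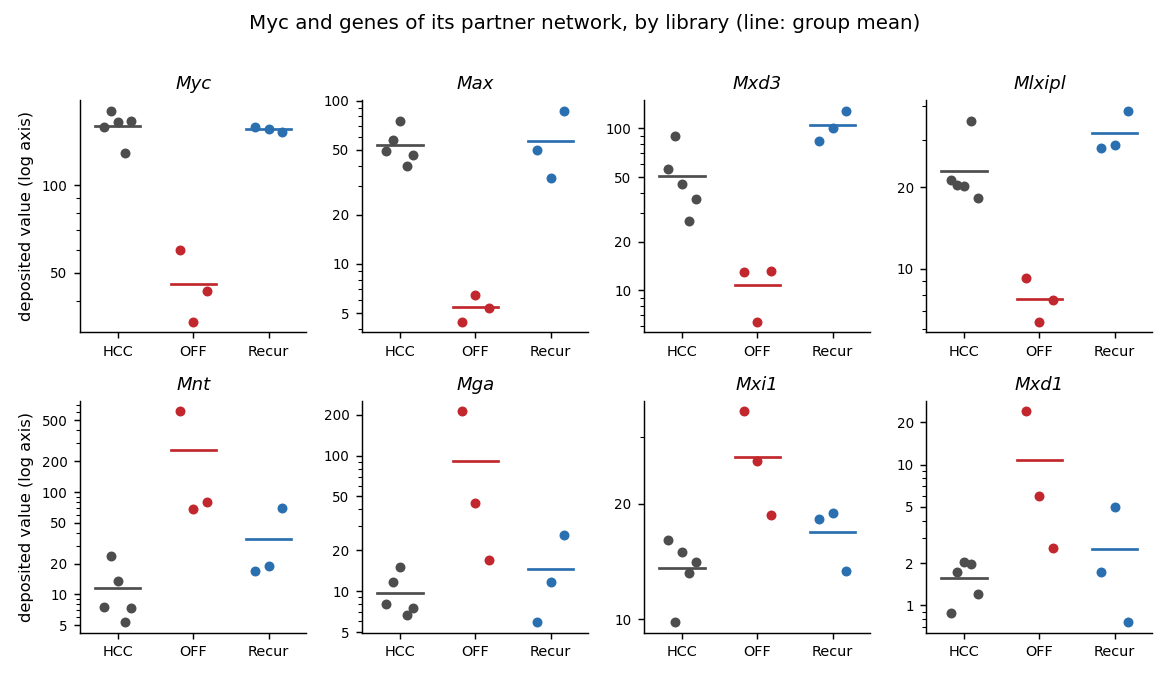
Deposited values on log axes of Myc, Max, Mxd3, Mlxipl, Mnt, Mga, Mxi1 and Mxd1 in each MYC_HCC (5), MYC_OFF (3) and MYC_Recur (3) library; each point is a library and each line a group mean. Myc, Max, Mxd3 and Mlxipl are lower in all 3 MYC_OFF libraries than in any other library shown, while Mnt, Mga, Mxi1 and Mxd1 are above every MYC_HCC library.

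Over all genes, 5208 were lower and 2119 higher as deposited, with a median log2 change of -0.49. The split depended on the scaling of the libraries. With the trimmed mean of M values, 4058 were lower and 2902 higher (57.6% in all), and the median was -0.16. Equal totals gave 5261 lower and 2029 higher (60.3% in all), and the upper quartile gave 3558 and 3272 (56.5% in all). With the median of ratios the sides were nearly even, at 3537 lower (29.3%) and 3298 higher (27.3%), and the median was -0.02. Called the same way as deposited and under all 4 rescalings were 3529 lower genes (29.2%) and 2026 higher genes (16.8%). The libraries of the 2 groups did not overlap in 6256 genes (51.8%). Genes called in every scaling are termed scaling-robust below, and each list is read against their shares.

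The size of the changes was large in both directions. Among the scaling-robust genes, 1164 lower and 700 higher genes changed at least 4-fold on the log2(value + 1) scale, and 40 lower and 145 higher genes at least 16-fold. The change also differed between MYC tumors and tumors labelled MYC_Twist1 in 13 genes (0.108%), by a test of the difference itself. The MYC_OFF libraries differed among themselves: in 2774 of the 3529 scaling-robust lower genes MYC_OFF 1 had the highest value of its group, that is, the one nearest to MYC_HCC. The scaling-robust higher genes varied more within groups than the lower ones, with a median coefficient of variation of 53% against 34.9% in MYC_OFF and of 39.8% against 23.6% in MYC_HCC. Of the higher genes, 292 passed the filter on low values only through MYC_OFF, and 331 of the lower genes only through MYC_HCC, so these had to differ.

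**Figure D2:**
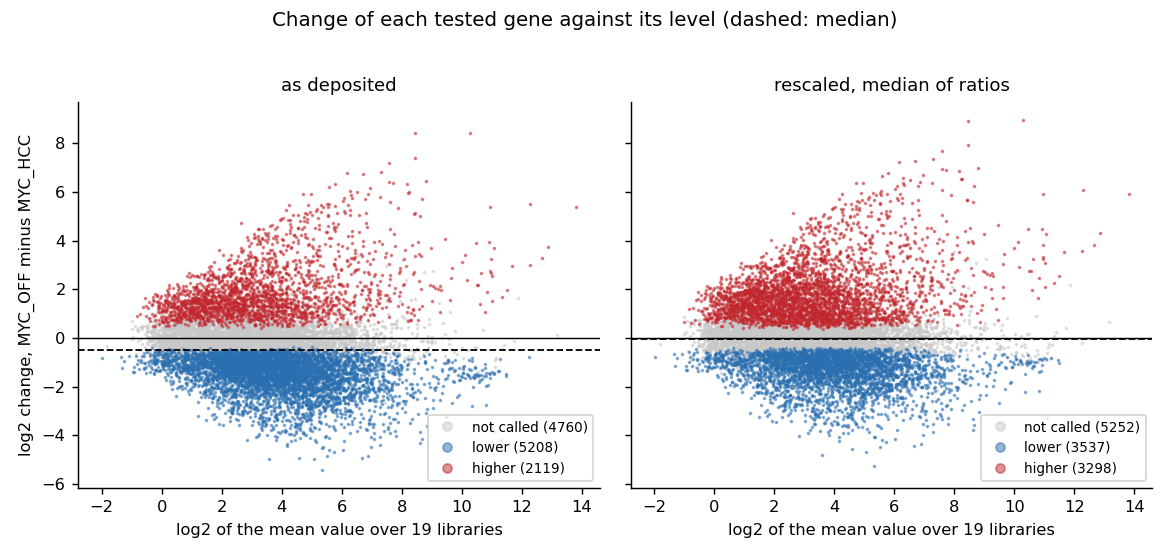
The log2 change of each of the 12087 tested genes (vertical axis, MYC_OFF minus MYC_HCC) against the log2 of its mean value over 19 libraries, as deposited on the left and rescaled by the median of ratios on the right; blue and red points were called lower and higher, and the dashed line is the median. As deposited 5208 genes are lower and 2119 higher, and after rescaling the numbers are 3537 and 3298.

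The share of lower genes differed with a gene's level and was greatest from 30 to 100. As deposited, 24.7% of genes with a mean under 3 over the 19 libraries were lower, 39.2% of those from 3 to 10, 49.8% from 10 to 30 and 56.7% from 30 to 100. In the 30 to 100 bin the median log2 change was -0.90 as deposited and -0.35 with the median of ratios. Above 300, 51.3% of 265 genes were lower and 24.9% higher, the greatest share of higher genes of any bin. The scaling-robust share lower was 15.8% under 3, 24.9% from 3 to 10, 34.0% from 10 to 30 and 41.9% from 30 to 100. It was 37.5% from 100 to 300 and 37.0% above 300. Many lists below hold abundant genes, and for some of them the share or median of their bin is given.

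As deposited, most measured genes of ribosome assembly were lower, as were most genes of their level. Of 55 tested genes for the assembly of ribosomes in the nucleolus, 35 were lower and 2 higher as deposited, and 27 lower and 2 higher were scaling-robust (49.1% against 29.2% of all genes). The list's median log2 change was -1.19, and -0.67 with the median of ratios; genes of its level (30 to 100) had -0.90 and -0.35. As deposited 63.6% of the list was lower, against 56.7% of genes in that bin. By scaling-robust calls the shares were 49.1% and 41.9%. Nop58, a core protein of the particles that methylate ribosomal RNA, read 180, 223, 158, 126 and 194 in MYC_HCC and 43.4, 29.1 and 27.2 in MYC_OFF. No MYC_OFF library came near the MYC_HCC range, and the log2 change was -2.37 (SE 0.22, limma adjusted p = 2.18e-07). Ltv1, an assembly factor of the small subunit, fell from 49.0 ± 10.9 to 4.72 ± 2.13. Grwd1, a histone and ribosome assembly factor, fell from 38.0 ± 9.92 to 3.33 ± 1.97, and Gar1, which guides pseudouridine formation, from 55.3 ± 10.6 to 13 ± 3.41. The nucleolar proteins Ncl (686 ± 206 to 125 ± 47.3) and Fbl (305 ± 92.2 to 69.9 ± 24.3) fell as well, and are named outside the naming rule after their values were seen.

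The 2 genes that went the other way were Utp20, a processome component that rose from 12.4 ± 2.17 to 23.5 ± 2.12, and Gnl3, the nucleolar GTPase nucleostemin, which rose from 183 ± 32.7 to 309 ± 76.7. The call for Gnl3 was lost when MYC_HCC 4, MYC_OFF 1 or MYC_OFF 3 was left out. Against MYC_Recur, 36 of the 55 genes were lower in MYC_OFF and 1 was higher (40.2% and 11.5% of all genes, 51.7% in both directions), and with the median of ratios 21 were lower and 10 higher.

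The promoters of these genes were searched for the E-box CACGTG, whose letters read the same on both strands, in the 250 bases before each start listed by RefSeq (GRCm38.p6). Among the ribosome assembly, polyamine, nucleotide and serine lists, 36 scaling-robust lower genes had a listed promoter, and 2 of them, Imp4 and Nme1, held the motif. They are shown because they carry the letters MYC is known to bind and their genes fell, as stretches of 120 bases taken from the 250 bases before the start, written 5′ to 3′ with the E-box in capitals. A match describes letters in this window and is not a site of binding.
Imp4 (chr1:34439651-34439770, plus strand): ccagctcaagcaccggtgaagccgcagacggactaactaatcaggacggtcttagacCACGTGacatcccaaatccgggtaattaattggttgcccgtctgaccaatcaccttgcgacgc
Nme1 (chr11:93968273-93968392, minus strand): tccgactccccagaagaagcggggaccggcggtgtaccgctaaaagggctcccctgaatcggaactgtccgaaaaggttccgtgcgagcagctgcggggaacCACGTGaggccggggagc
The E-box begins 121 bases before the start of Imp4 and 18 bases before that of Nme1. Imp4, a component of the small-subunit processome, read 53.3, 44.2, 34.4, 31.7 and 52.5 in MYC_HCC and 14.6, 9.23 and 9.32 in MYC_OFF. Nme1, a nucleoside diphosphate kinase, read 230, 132, 195, 119 and 187 in MYC_HCC and 51.5, 25.6 and 21.0 in MYC_OFF. Neither gene's groups overlapped. In the 4 lists the motif was in 9.28% of 97 tested genes with a listed promoter, and in 5.56% of the 36 scaling-robust lower ones. The larger sets of tested genes had shares that lay close together. The motif was in 10.9% of 2703 scaling-robust lower genes with a listed promoter and 10.1% of 1416 higher genes. Its share was 9.99% of all 8958 tested genes with a listed promoter, and 6.86% of all 27025 genes in the promoter table.

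RNA polymerases I and III make ribosomal and transfer RNA. Of 35 tested subunits and factors, 21 were lower and 3 higher, and 11 and 3 were scaling-robust. The scaling-robust shares, 31.4% lower and 8.57% higher, compare with 29.2% and 16.8% of all genes. Polr1d, a subunit shared by both enzymes, fell from 229 ± 56.3 to 59.4 ± 17.8. Gtf3c5, part of the factor that recruits polymerase III, fell from 9.68 ± 3.74 to 0.543 ± 0.513. Polr3c, a subunit of polymerase III, read 33.6, 7.26, 38.8, 33.8 and 36.4 in MYC_HCC and 819, 1396 and 743 in MYC_OFF, a log2 change of 5.13 (SE 0.53, limma adjusted p = 4.75e-07). Its MYC_Recur values, 197, 177 and 614, lay between the groups.

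As deposited, the genes for proteins of the ribosome itself fell in most members while a few rose steeply. Of 47 large-subunit genes, 33 were lower and 5 higher, and 25 and 5 were scaling-robust. Of 32 small-subunit genes, 24 were lower and 4 higher, and 16 and 4 were scaling-robust. The median log2 changes were -1.42 and -1.34, against -0.89 for all genes with a mean over 300, of which 51.3% were lower. Rpl23a read 3882, 3200, 3275, 2913 and 3813 in MYC_HCC and 517, 151 and 170 in MYC_OFF (log2 change -3.84, SE 0.34, limma adjusted p = 1.31e-07). Rpl27, Rpl31 and Rpl21 had log2 changes of -3.14, -3.33 and -2.54, and Rps29 had one of -1.91.

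Rps19, a small-subunit protein, went from 1439, 458, 980, 849 and 1260 in MYC_HCC to 26471, 32923 and 65239 in MYC_OFF. Its lowest MYC_OFF value was many times its highest MYC_HCC value, and the MYC_Recur libraries read 843, 1911 and 446. Rps9 went from 740 to 1646 in MYC_HCC to 11646, 15907 and 21825 in MYC_OFF, and Rps14 from 706 to 3179 in MYC_HCC to 22655, 16365 and 10935 in MYC_OFF. Rpl28 had a log2 change of 2.99, Rpl27a of 1.97 and Rps25 of 1.88. The summed value of the small-subunit genes was higher in MYC_OFF (85910 to 118800) than in MYC_HCC (30840 to 65530), although most members fell. Ribosomal protein genes have many near-identical copies in the genome, so values of single members are uncertain if the authors' counting divided reads between copies.

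Translation factors were also mostly lower as deposited. Of 45 initiation and elongation genes, 31 were lower and 2 higher, and 20 and 2 were scaling-robust. Eif4ebp1, the mTOR-regulated brake on cap binding, fell from 137 ± 30.7 to 26.2 ± 7.5. Pabpc1, the poly(A)-binding protein, fell from 811 ± 159 to 110 ± 31.4, Eif3h from 334 ± 47.4 to 65.2 ± 28.1 and the helicase gene Eif4a2 from 93.2 ± 22.7 to 19.5 ± 4.26. Eef1b2, an exchange factor for the elongation factor eEF1A, rose in every library, from 398 to 649 in MYC_HCC to 3304, 3778 and 3935 in MYC_OFF.

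Among 20 cytosolic tRNA synthetases, which load amino acids onto transfer RNA, 12 were lower and 4 higher, and 9 and 4 were scaling-robust. Their shares lower, 60% and 45%, lay near the 56.7% and 41.9% of genes with a mean from 30 to 100. Yars fell from 40.4 ± 5.77 to 2.78 ± 1.26, Wars from 30.9 ± 8.54 to 1.36 ± 1.17, Gars from 146 ± 45.3 to 14.5 ± 6.99 and Eprs from 120 ± 8.99 to 20.6 ± 7.65. Wars was also low in MYC_Recur (2.16 ± 1.99, n = 3), so within the newer deposit its difference did not pass the test (log2 -0.34, limma adjusted p = 0.555). Sars rose from 53.9 ± 8.93 to 285 ± 101. The 2 subunits of the phenylalanine enzyme moved apart: Farsa read 45.8, 4.56, 42.6, 27.5 and 42.6 in MYC_HCC and 663, 1234 and 967 in MYC_OFF. Farsb, named after its values were seen, read 54.9 to 91.3 in MYC_HCC and 13.5, 7.6 and 17.2 in MYC_OFF.

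**Figure D3:**
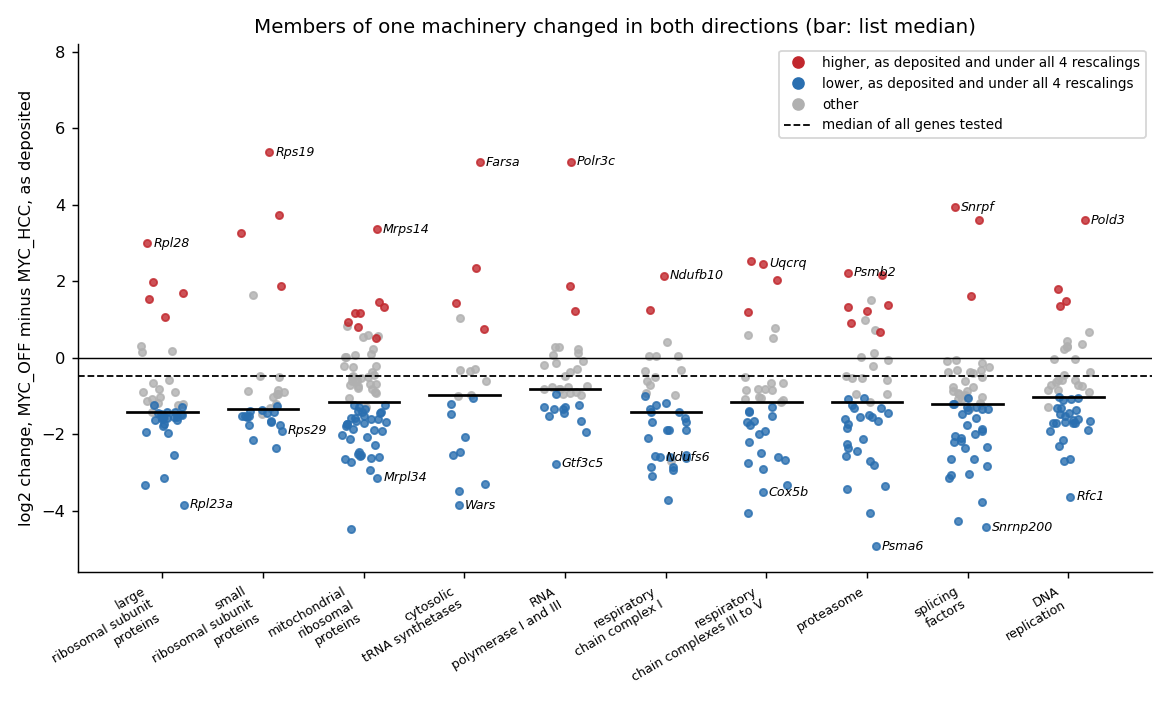
The log2 change as deposited of each tested member of 10 lists of protein machines (vertical axis); each point is a gene, red and blue points were called higher and lower as deposited and under all 4 rescalings, black bars are list medians and the dashed line is the median of all genes tested (-0.49). Every list has a median below the dashed line and at least 2 red points, among them Rps19 at 5.37, Polr3c at 5.13 and Farsa at 5.11.

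The supply of nucleotides, one-carbon units and polyamines changed in single genes more than as groups once the libraries were rescaled. Of 28 purine and pyrimidine genes, 18 were lower and 1 higher as deposited, but 7 and 1 were scaling-robust (25% lower, against 29.2% of all genes). Umps, which makes uridine monophosphate, read 60.7, 62.5, 65.6, 44.8 and 63.0 in MYC_HCC and 7.79, 4.33 and 3.26 in MYC_OFF (log2 change -3.36, SE 0.30, limma adjusted p = 1.24e-07). Gart and Gmps, purine enzymes, fell from 55.3 ± 9.69 to 7.95 ± 3.91 and from 34.8 ± 5.34 to 5.41 ± 3.79.

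In the serine and folate list, 4 of 17 genes fell and 3 rose, and all of these calls were scaling-robust. The falls included the glycine cleavage genes Gldc, from 97.2 ± 15.1 to 3.28 ± 2.86, and Gcsh, from 183 ± 62.8 to 22 ± 14.9. Amt, another gene of that same enzyme system, rose from 24.8 ± 13.2 to 341 ± 248. Mthfd2, a mitochondrial folate enzyme often high in tumors, read 24.5, 2.95, 6.26, 15.3 and 23.6 in MYC_HCC and 571, 1908 and 460 in MYC_OFF, a log2 change of 6.0 (SE 1.21, limma adjusted p = 0.000371). MYC_Recur read 53.1, 45.8 and 0.79.

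Of 10 polyamine genes, 6 were lower and 2 higher as deposited, and 2 and 2 were scaling-robust. Odc1, the rate-limiting enzyme and a well-known MYC target, read 227, 258, 201, 125 and 183 in MYC_HCC and 68.7, 105 and 109 in MYC_OFF. Its groups did not overlap, yet its call held only as deposited (log2 change -1.06, limma adjusted p = 0.00367) and with equal totals, and the median of ratios gave -0.50. Srm (-1.12) and Azin1 (-0.56) likewise lost their calls with 3 of the rescalings, and both also without MYC_OFF 2. Azin1 lost its call without MYC_HCC 1, 3 or 4 or MYC_OFF 3 as well. Amd1, which makes the aminopropyl donor, fell from 86.5 ± 23.6 to 5.71 ± 3.83 and was scaling-robust, as was Paox. Oaz1, the antizyme that sends ornithine decarboxylase to the proteasome, rose from 82.4 ± 44.4 to 565 ± 397. Sms, spermine synthase, had a log2 change of 0.75, lost when MYC_OFF 3, or MYC_HCC 4 and 5 together, were left out.

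Amino acid transporters were lower in 15 of 22 genes and higher in 3, and 12 and 3 were scaling-robust (54.5% lower). Slc7a5, the LAT1 leucine carrier, fell from 40.8 ± 16 to 4.99 ± 2.38, the mitochondrial glutamate carrier Slc25a22 from 31.2 ± 9.8 to 2.78 ± 0.566, and the taurine carrier Slc6a6 from 25.2 ± 5.82 to 3.94 ± 0.634. Slc7a6 rose from 10.2 ± 4.08 to 28.1 ± 9.46.

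As deposited, proliferation genes fell in most members. Of 50 DNA replication genes, 35 were lower and 4 higher, and 25 and 4 were scaling-robust. Of 50 mitosis genes, 31 were lower and 6 higher, and 26 and 6 were scaling-robust. The scaling-robust lower genes were 25 of 50 and 26 of 50, against 29.2% of all genes, and the level bin of these lists (10 to 30) had a median log2 change of -0.66 against -1.03 and -1.21 for the lists. Mki67, the standard proliferation marker, read 57.7, 63.2, 47.7, 47.6 and 64.4 in MYC_HCC and 17.5, 9.61 and 10.2 in MYC_OFF, and the groups were separate (log2 change -2.12, SE 0.23, limma adjusted p = 6.9e-07). Ccnb1, the mitotic cyclin B1, fell from 66.6 ± 24.2 to 5.04 ± 3.15, the kinase gene Aurkb from 36.8 ± 9.62 to 4.81 ± 1.38 and the condensin gene Smc4 from 71.4 ± 11.7 to 11.8 ± 2.87. Ribonucleotide reductase fell in its subunits Rrm2 (69.4 ± 11.3 to 10.6 ± 3.92) and Rrm1 (55.2 ± 17.2 to 7.54 ± 2.19), and the primase gene Prim1 fell from 45.9 ± 4.76 to 11.8 ± 4.09.

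Some cell cycle genes rose. Pold3, an accessory subunit of DNA polymerase delta, read 20.3, 8.1, 19.7, 14 and 23.2 in MYC_HCC and 190, 255 and 180 in MYC_OFF. Incenp, the scaffold that binds Aurora B, rose from 42.6 ± 12.9 to 268 ± 117, opposite to Aurkb. In the list of cyclins, kinases and E2F factors of the G1 to S transition, 12 of 25 were lower and 6 higher, and 10 and 6 were scaling-robust. These shares lower were 48% and 40%, against 49.8% and 34.0% of genes with a mean from 10 to 30. Ccne1, cyclin E1, fell from 39.3 ± 11.6 to 1.73 ± 1.69, and E2f4 from 61.4 ± 15.8 to 5.04 ± 3.12. Rbl1, which encodes the pocket protein p107, rose from 3.33 ± 0.968 to 39.5 ± 33.0 and E2f6, a repressor, from 7.38 ± 2.96 to 53.2 ± 15.5. E2f3 read 1.01 to 6.13 in MYC_HCC and 32.1, 429 and 124 in MYC_OFF.

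The list of cell cycle inhibitors and p53 targets stood near the background, with 10 of 30 lower and 5 higher, 7 and 5 of them scaling-robust (23.3% and 16.7%). Ccng1, cyclin G1, fell from 41.2 ± 12.8 to 12.1 ± 2.61, while Ei24 rose from 44.6 ± 19 to 289 ± 101 and the kinase gene Plk3 from 2.23 ± 0.921 to 21.8 ± 10.5. Aen, a nuclease gene, had MYC_OFF values of 216, 1629 and 56.8 against 14.5 to 30.2 in MYC_HCC. Cdkn1a, which encodes p21 and is named outside the rule, read 35.1 to 65.9 in MYC_HCC and 38.7, 34.7 and 37.8 in MYC_OFF, and did not pass the test (log2 change -0.24, limma adjusted p = 0.373).

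Of 28 glycolysis genes, 18 were lower and 2 higher, and 13 and 2 were scaling-robust (46.4% lower, against 29.2% of all genes). Pgk1 read 393, 466, 435, 401 and 485 in MYC_HCC and 92.6, 81.8 and 80.5 in MYC_OFF (log2 change -2.34, SE 0.22, limma adjusted p = 2.18e-07), and Aldoa fell from 507 ± 113 to 104 ± 26.7. Slc2a2, the GLUT2 glucose carrier of hepatocytes, fell from 41.9 ± 30.7 to 2.3 ± 1.13. The lactate dehydrogenase genes moved apart: Ldha, named after its values were seen, fell from 989 ± 187 to 228 ± 153. Ldhb read 0.69, 0.06, 0.57, 1.43 and 0.67 in MYC_HCC and 35.6, 80.4 and 33.7 in MYC_OFF. Hk3, a hexokinase of blood cells, rose from 0.846 ± 0.34 to 17.6 ± 13.1. Among 16 genes of gluconeogenesis and glycogen, 7 were lower and 2 higher and all were scaling-robust, Slc37a4 and Pcx among the lower ones (log2 changes -2.11 and -1.31). The share lower, 43.75% by either count, was near the 43.1% of all genes as deposited but above their 29.2% by scaling-robust calls. Genes with a mean from 10 to 30, the level of this list, had 49.8% and 34.0%. The median log2 change went from -0.79 to -0.29 without MYC_HCC 4 and 5.

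Of 27 genes of the citric acid cycle and pyruvate dehydrogenase, 21 were lower and 2 higher, and 11 and 2 were scaling-robust. As deposited 77.8% were lower, against 56.7% of genes with a mean from 30 to 100. By scaling-robust calls 40.7% were lower, near the 41.9% of that bin. Pdhb, the beta chain of pyruvate dehydrogenase E1, read 158, 202, 152, 182 and 128 in MYC_HCC and 17.1, 2.74 and 4.86 in MYC_OFF, while MYC_Recur read 262, 214 and 184. The MYC_OFF libraries lay far below both other groups, and the log2 change was -4.47 (SE 0.34, limma adjusted p = 5.87e-08). Sucla2, a subunit of succinyl-CoA synthetase, fell from 76.7 ± 11.3 to 15.5 ± 3.11. Mdh1 fell from 195 ± 114 to 12.8 ± 7.94, with MYC_HCC 4 at 397 and the others at 123 to 153. Idh2 rose from 170 ± 33.1 to 884 ± 355.

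The respiratory chain had the same shape. In complex I, 27 of 37 nuclear genes were lower and 2 higher, and 23 and 2 were scaling-robust (62.2% lower). Ndufs6 fell from 245 ± 18.6 to 40.8 ± 13.1 and Ndufs1 from 99.8 ± 29.6 to 12.2 ± 3.82, while Ndufb10 rose from 222 ± 78.3 to 967 ± 268 and Ndufb2 had a log2 change of 1.26, whose call was lost without MYC_HCC 2, MYC_OFF 2 or MYC_OFF 3. In complexes III to V, 26 of 37 were lower and 4 higher, and 18 and 4 were scaling-robust. Cox5b fell from 497 ± 93.8 to 46.0 ± 25.5, and the ATP synthase genes Atp5f1 and Atp5k had log2 changes of -2.90 and -2.75. Uqcrq, a complex III subunit, read 352, 223, 275, 344 and 234 in MYC_HCC and 1167, 2017 and 1558 in MYC_OFF, and Uqcr11, also of complex III, had a log2 change of 2.53. Mitochondrial ribosomal proteins were lower in 49 of 76 genes and higher in 8, with 37 and 8 scaling-robust, and without MYC_HCC 4 and 5 in 47 and 5. Lower were 64.5% as deposited and 48.7% by scaling-robust calls, against 56.7% and 41.9% of genes with a mean from 30 to 100. Mrpl34 fell from 107 ± 17.0 to 11.6 ± 3.44, and Mrps14 rose from 13.6 ± 4.55 to 155 ± 75.7.

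Fatty acid oxidation had a median log2 change of -1.60 as deposited, with 22 of 32 genes lower and 3 higher and 19 and 3 scaling-robust (59.4% lower). With MYC_HCC 4 and 5 left out the median was -1.23 and 20 were lower. Hadh fell from 295 ± 44.9 to 48.4 ± 12.4, and Acadl from 101 ± 28.4 to 22.8 ± 6.2. Fat and sterol synthesis was lower in 21 of 39 genes and higher in 1, and 15 and 1 were scaling-robust. That was 53.8% and 38.5% lower, against 49.8% and 34.0% of genes with a mean from 10 to 30. Acaca, which makes malonyl-CoA, fell from 26.0 ± 3.23 to 3.87 ± 0.2, and its regulator Srebf1 from 29.98 ± 9.85 to 5.47 ± 1.71. Against MYC_Recur, 15 of the 32 oxidation genes and 19 of the 39 synthesis genes were lower in MYC_OFF as deposited, near the 40.2% of all genes. With the median of ratios, 6 oxidation genes were lower and 4 higher and 12 synthesis genes lower and 6 higher, against 21.9% of all genes in each direction.

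Genes of the differentiated hepatocyte were mostly lower in MYC_OFF. Of 35 plasma and transport protein genes, 24 were lower and 2 higher, and 20 and 2 were scaling-robust (57.1% lower). The median log2 change was -1.58, and -1.28 with MYC_HCC 4 and 5 left out, when 23 were lower. Alb, serum albumin, defines the tissue and read 1452, 1450, 1984, 4480 and 2671 in MYC_HCC against 411, 298 and 255 in MYC_OFF and 1409, 1769 and 2280 in MYC_Recur. No MYC_OFF library reached any other library shown, and the log2 change was -2.79 (SE 0.33, limma adjusted p = 1.86e-06). Ttr fell from 1068 ± 525 to 180 ± 82.7 and the alpha-1 antitrypsin gene Serpina1c from 969 ± 628 to 79.6 ± 55.6. MYC_HCC 4 was the highest library in all 3 genes, and without it each was still called. Apoh, beta-2-glycoprotein I, rose: it read 323, 133, 256, 549 and 311 in MYC_HCC and 2880, 3293 and 2830 in MYC_OFF.

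**Figure D4:**
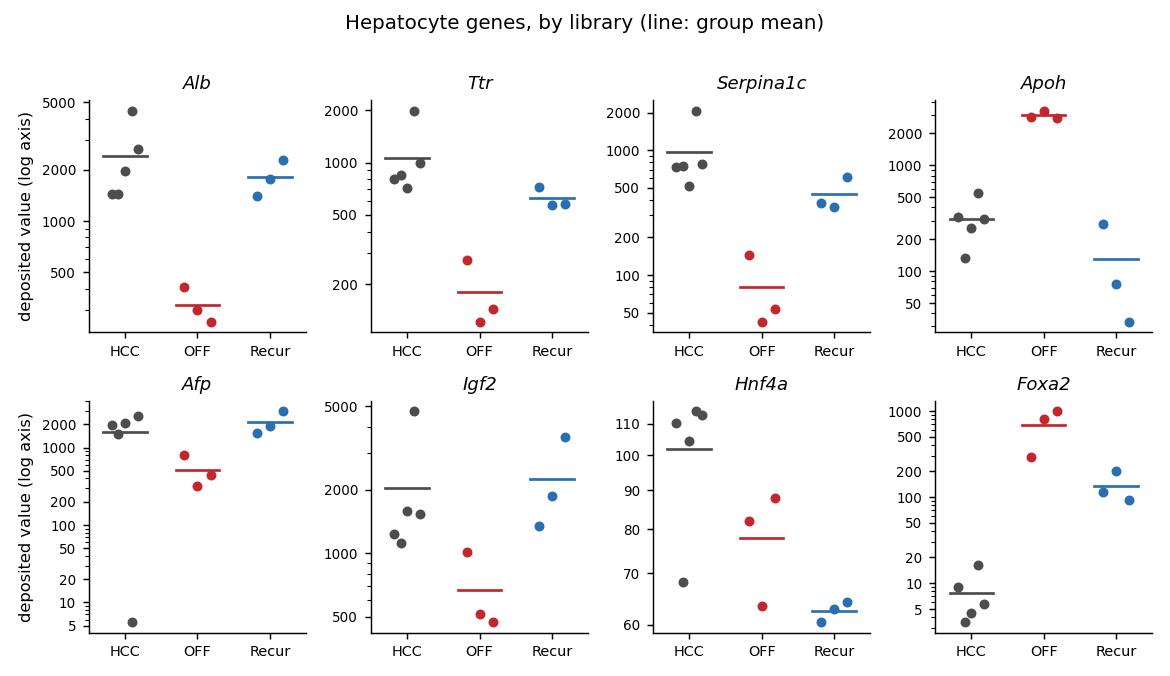
Deposited values on log axes of the hepatocyte genes Alb, Ttr, Serpina1c, Apoh, Afp, Igf2, Hnf4a and Foxa2 in each MYC_HCC (5), MYC_OFF (3) and MYC_Recur (3) library; each point is a library and each line a group mean. Alb, Ttr and Serpina1c are lowest in the 3 MYC_OFF libraries, Apoh and Foxa2 are highest there, and the low MYC_HCC point for Afp, at 5.55, is MYC_HCC 4.

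Of 21 tested transcription factors that hold hepatocyte identity, 15 were lower and 1 higher, and 11 and 1 were scaling-robust. That was 71.4% and 52.4% lower, against 49.8% and 34.0% of genes with a mean from 10 to 30. With MYC_HCC 4 and 5 left out, 14 were lower and 3 higher. Hnf4a, the central hepatocyte nuclear receptor, read 110, 68.1, 104, 114 and 113 in MYC_HCC and 82.1, 63.5 and 87.9 in MYC_OFF. Its groups overlapped and it did not pass the test (log2 change -0.37, SE 0.26, limma adjusted p = 0.216). Rxra, the shared partner of many nuclear receptors, fell from 30.7 ± 10.5 to 1.97 ± 1.24, Hhex from 39.8 ± 5.72 to 13.3 ± 4.52 and the oxysterol receptor gene Nr1h3 from 20.6 ± 8.53 to 5.64 ± 1.23. Foxa2, a pioneer factor of foregut and liver on chromosome 2 at 148042877 to 148046969 (GRCm38, minus strand), rose. It read 9.03, 3.51, 4.45, 16.2 and 5.67 in MYC_HCC and 290, 802 and 998 in MYC_OFF, and its MYC_Recur values of 113, 202 and 93.3 lay between the groups without overlap.

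Complement and coagulation genes were lower in 23 of 43 and higher in 5, and 19 and 5 were scaling-robust. The shares lower, 53.5% and 44.2%, lay near the 56.7% and 41.9% of genes with a mean from 30 to 100, the level of this list. The median log2 change was -1.04, and -0.53 without MYC_HCC 4 and 5. Vtn fell from 388 ± 151 to 36.1 ± 22.7 and C8b from 32.0 ± 9.0 to 4.15 ± 1.15, while Serping1, the C1 inhibitor, rose from 35 ± 30.2 to 307 ± 89.5. In the 56 genes of the urea cycle and amino acid breakdown, 37 were lower and 3 higher, and 27 and 2 were scaling-robust. Lower were 66.1% and 48.2%, against 56.7% and 41.9% of genes with a mean from 30 to 100. Mcee, of the propionate pathway, fell from 64.9 ± 19.97 to 1.28 ± 1.46 and Fah, of tyrosine breakdown, from 66.6 ± 21.7 to 5.03 ± 4.91. Ass1, a urea cycle enzyme, rose from 930 ± 335 to 2409 ± 700. Of 25 bile acid genes 11 were lower and 1 higher, and 12 and 4 without MYC_HCC 4 and 5. The lower ones included the bile salt carrier Slc10a1, which read 206 in MYC_HCC 4, 16.1 to 26.9 in the other MYC_HCC libraries and 3.52 to 4.84 in MYC_OFF.

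Of 33 cytochrome P450 genes, which oxidise drugs and lipids, 10 were lower and 7 higher as deposited, against 39.2% and 17.1% of genes in their level bin, and 4 and 7 were scaling-robust (12.1% lower, 21.2% higher). Cyp2d26 fell from 58.1 ± 27.7 to 6.81 ± 3.4. Cyp2a5, a coumarin hydroxylase, rose, with 36.1, 446 and 59.1 in MYC_OFF and 0 to 3.91 in MYC_HCC. P450 families hold close paralogs, so values of single members are uncertain if reads were divided by shared sequence. Without MYC_HCC 4 and 5, 8 P450 genes were lower and 9 higher. Phase II conjugation genes were lower in 20 of 38 and higher in 1, and without those libraries in 20 and 6. In all, 11 lower and 1 higher were scaling-robust, Ugt2b34 and Mgst1 among the lower ones (log2 changes -2.51 and -2.49). Of 17 zonation markers, which separate the periportal from the central lobule, 12 were lower and none higher, and 7 of these were scaling-robust. That was 70.6% and 41.2% lower, against 49.8% and 34.0% of genes with a mean from 10 to 30. Gls2, Ctsc, Oat and Pck1 had log2 changes of -1.43, -1.70, -1.62 and -2.03, and the zones were not compared.

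Oncofetal genes, which fetal liver and liver cancers share, split. Of 16 tested, 3 were lower and 4 higher, and 2 and 4 were scaling-robust. Afp, alpha-fetoprotein, read 1951, 1484, 2080, 5.55 and 2564 in MYC_HCC and 796, 318 and 439 in MYC_OFF. All 3 MYC_OFF libraries were below 4 of the MYC_HCC libraries and above MYC_HCC 4, and the test was not passed (log2 change -0.39, SE 1.30, limma adjusted p = 0.808). Without MYC_HCC 4, Afp was lower in MYC_OFF and passed it (log2 change -2.04, limma adjusted p = 3.72e-05). With MYC_HCC 4 and 5 left out, 7 oncofetal genes were lower and 3 higher. Igf2 was lower as deposited (log2 change -1.47) but not with the median of ratios (-0.91) or the upper quartile. Igf2bp3 fell from 35.8 ± 11.4 to 2.67 ± 2.77. The chromatin protein gene Hmga1 rose from 641 ± 265 to 2982 ± 1814 and Cd24a from 1.5 ± 1.09 to 9.0 ± 4.07. Among 22 acute phase genes 8 were lower and 1 higher, with a median log2 change of -0.80 that became 0.11 without MYC_HCC 4 and 5. Crp, C-reactive protein, fell from 24.3 ± 6.98 to 1.91 ± 1.92, and Socs3, an inhibitor of cytokine signalling, rose from 1.4 ± 0.826 to 16.4 ± 8.73.

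**Figure D5:**
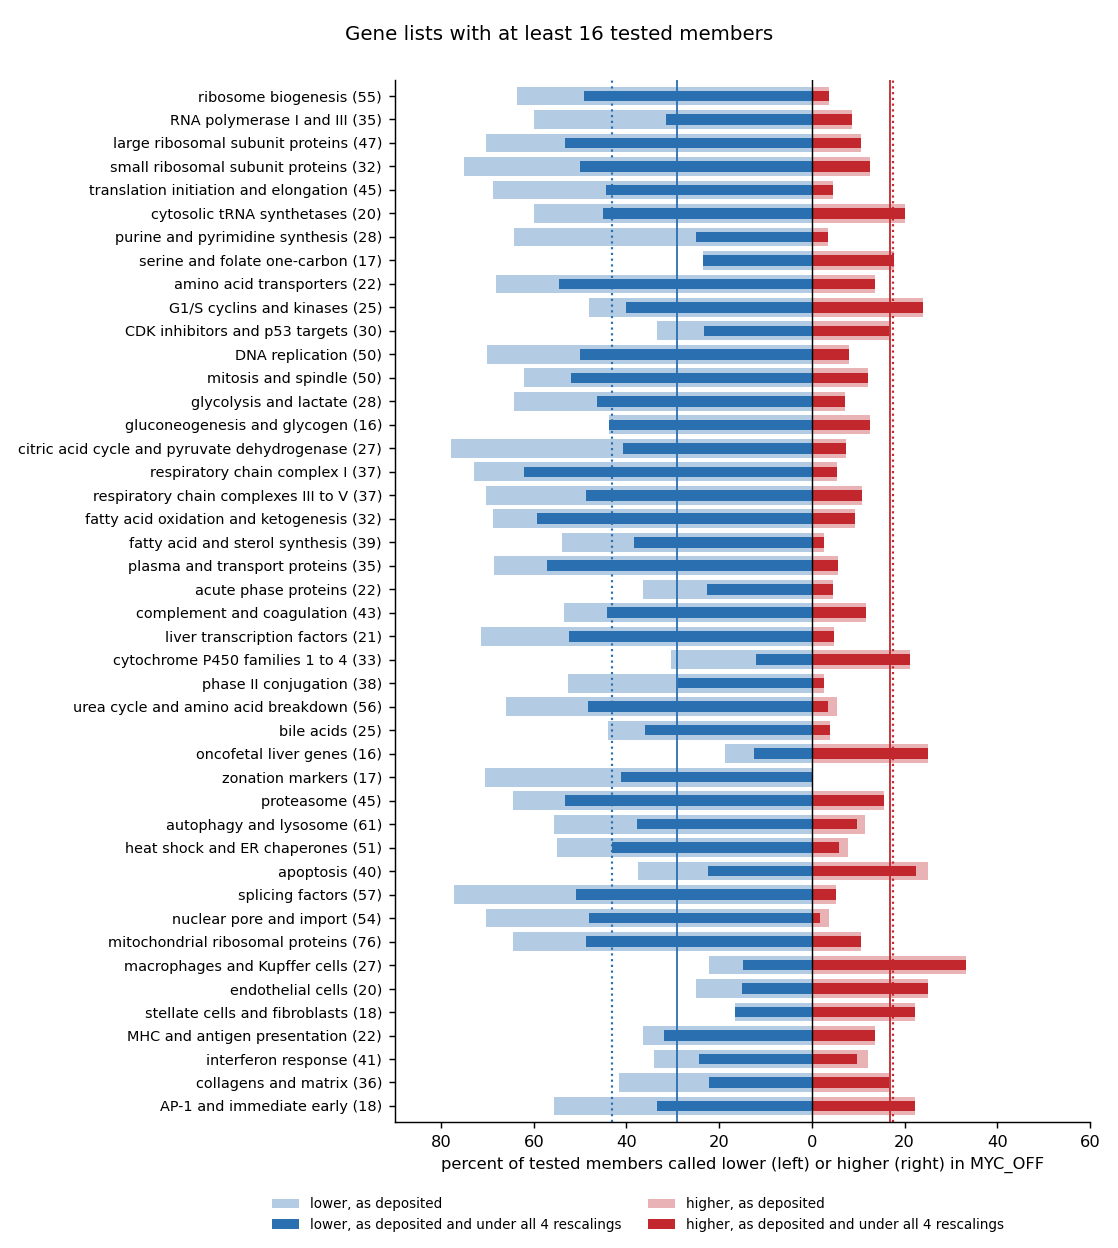
For each gene list with at least 16 tested members (number in brackets), the percent of members called lower (left, blue) or higher (right, red) in MYC_OFF, pale bars as deposited and dark bars as deposited and under all 4 rescalings; dotted and solid vertical lines are the same shares over all genes tested (43.1% and 29.2% lower, 17.5% and 16.8% higher). Ribosome, replication, mitosis, respiratory chain and plasma protein lists are among those that reach past the lines on the left. Macrophage, oncofetal, G1/S, P450, endothelial, apoptosis, stellate cell, AP-1 and tRNA synthetase lists are among those past the lines on the right.

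Protein turnover and RNA handling also held falls and rises. Of 45 proteasome genes, 29 were lower and 7 higher, and 24 and 7 were scaling-robust. That was 64.4% and 53.3% lower, against 56.7% and 41.9% of genes with a mean from 30 to 100. Psma6, of the core ring, read 157, 227, 239, 130 and 167 in MYC_HCC and 8.96, 3.6 and 3.6 in MYC_OFF (log2 change -4.92, SE 0.37, limma adjusted p = 4.93e-08). The lid deubiquitinase gene Psmd14 fell from 67.0 ± 9.06 to 5.59 ± 2.43, while Psmb2, of the same core as Psma6, rose from 99.7 ± 32.5 to 498 ± 294. Of 57 splicing factors, 44 were lower and 3 higher, and 29 and 3 were scaling-robust. Lower were 77.2% and 50.9%, against 56.7% and 41.9% of genes at the same level. Snrnp200, a spliceosome helicase, fell from 31.3 ± 7.85 to 0.647 ± 1.02 and Hnrnpf from 397 ± 50.5 to 61.9 ± 4.92. Sf3b5 rose from 48.3 ± 13.7 to 597 ± 189, and Snrpf, an Sm-ring protein, read 7674, 3238 and 1226 in MYC_OFF against 114 to 347 in MYC_HCC.

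Nuclear pore and transport genes were lower in 38 of 54 and higher in 2, and 26 and 1 were scaling-robust. That was 70.4% and 48.1% lower, against 49.8% and 34.0% of genes with a mean from 10 to 30. Xpo4, an export receptor, read 11.9, 3.7, 8.3, 8.21 and 11.8 in MYC_HCC and was listed at 0 in all 3 MYC_OFF and all 3 MYC_Recur libraries. Nup88 fell from 53.1 ± 10.8 to 8.52 ± 2.71. Heat shock and endoplasmic reticulum chaperones were lower in 28 of 51 and higher in 4, with 22 and 3 scaling-robust. The shares lower, 54.9% and 43.1%, lay near the 56.7% and 41.9% of genes with a mean from 30 to 100. Calr fell from 740 ± 75.5 to 103 ± 44.8, and Hsp90aa1 read 956, 553, 691, 414 and 1058 in MYC_HCC and 4992, 5510 and 5842 in MYC_OFF. Of 61 autophagy and lysosome genes, 34 were lower and 7 higher, and 23 and 6 were scaling-robust. That was 55.7% and 37.7% lower, against 49.8% and 34.0% of genes with a mean from 10 to 30. Gabarap, which coats autophagosomes, fell from 98.9 ± 12.6 to 8.01 ± 3.97, while Ulk1, the kinase that starts autophagy, read 253, 614 and 33.0 in MYC_OFF and 0.69 to 9.91 in MYC_HCC.

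Of 40 cell death genes, 15 were lower and 10 higher as deposited, and 9 in each direction were scaling-robust. Lower were 37.5% and 22.5%, near the 39.2% and 24.9% of genes with a mean from 3 to 10. Higher were 25% and 22.5%, against 17.1% and 16.2% of that bin. Mcl1, a survival factor, fell from 67.0 ± 14.8 to 9.52 ± 3.96 and Ripk1 from 7.9 ± 1.36 to 0.927 ± 0.376. Mlkl, the executor of necroptosis, read 0.64, 0.1, 0.81, 6.19 and 1.82 in MYC_HCC and 97.9, 36.9 and 21.9 in MYC_OFF, and 0 to 0.2 in MYC_Recur. Casp1, of the inflammasome, rose from 2.99 ± 1.88 to 18.7 ± 9.56.

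Markers of other cell types moved in both directions. Of 27 tested macrophage and Kupffer cell markers, 9 were higher and 6 lower, and 9 and 4 were scaling-robust (33.3% higher, against 16.8% of all genes). The summed level of the list was 450 to 1184 in MYC_HCC and 802 to 983 in MYC_OFF, so the groups overlapped. As deposited, its defining genes did not pass the test: Cd68 had a log2 change of 0.52, Csf1r of -0.28 and EMR1, the F4/80 gene, of -0.43. With the median of ratios Cd68 was called higher (log2 change 1.08, limma adjusted p = 0.0278), and Csf1r and EMR1 were still not called. Within the list, Cx3cr1 rose from 0.548 ± 0.274 to 24.8 ± 12 and Cd163 from 0.414 ± 0.173 to 7.63 ± 2.21, whereas C1qb fell from 84.0 ± 32.3 to 14.8 ± 5.92 and Ctss from 33.1 ± 14 to 4.27 ± 0.851. Cx3cr1 and Cd163, both counted as higher, had MYC_HCC means under 1. They could pass the filter on low values only with the help of MYC_OFF, so the filter favored a rise. Of 13 neutrophil and monocyte markers, 4 were higher and 2 lower. Csf3r, whose MYC_HCC mean was also under 1, rose from 0.776 ± 0.336 to 43.5 ± 33.1 and S100a9 fell from 5.82 ± 1.51 to 1.08 ± 0.854. Of 30 T and NK cell markers with a row, 8 were tested, 2 of them higher and 1 lower, and summed levels were 17.4 to 26.9 in MYC_HCC and 22 to 53.1 in MYC_OFF. Only 3 of 15 B and plasma cell markers in the table were tested, 2 of them lower, and their part in any other result was not tested.

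Endothelial markers summed to 65.9 to 195 in MYC_HCC and 250 to 385 in MYC_OFF. Of 20 tested, 5 were higher and 5 lower, with 5 and 3 scaling-robust. That is 25% each way as deposited, against 22.5% higher and 24.7% lower of genes with a mean under 3. Cldn5, of tight junctions, read 1.23, 0.6, 0.74, 7.84 and 0.73 in MYC_HCC and 35, 112 and 140 in MYC_OFF. Pecam1 rose from 9.47 ± 10.6 to 53 ± 28.5 with overlapping libraries, since MYC_HCC 4 was at 28.2. Cdh5, the endothelial cadherin, fell from 12.4 ± 15.1 to 1.74 ± 1.81, also with overlap, and Kdr did not pass the test (log2 change -0.05). With MYC_HCC 4 and 5 left out, 6 endothelial genes were higher and 3 lower. Stellate cell and fibroblast markers were higher in 4 of 18 and lower in 3, all scaling-robust, and summed to 114 to 313 in MYC_HCC and 102 to 158 in MYC_OFF. Thy1 rose from 1.34 ± 1.1 to 16.4 ± 9.27, Col1a1 fell from 14.3 ± 9.82 to 3.36 ± 1.68, and Dcn was listed at 0 in all 3 MYC_OFF libraries against 0.44 to 30.04 in MYC_HCC. The part of these cell types in the other results was not tested.

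Of 7 tested red cell genes, 4 were higher and 2 lower. Hba-a1 fell from 309 ± 44.4 to 110 ± 24.5, Hbb-b2 rose from 55.2 ± 13.7 to 211 ± 119, and globin genes have near-identical copies. Cholangiocyte markers were lower in 3 of 9 and higher in 1, and Krt7, the defining gene, did not pass the test (log2 change 0.65). Without MYC_HCC 4 and 5, Krt7 was lower (log2 change -0.77, limma adjusted p = 0.0121), and the list's median went from -0.13 to -0.77.

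Of 22 tested antigen presentation genes 8 were lower and 3 higher, and 7 and 3 were scaling-robust. The shares lower, 36.4% and 31.8%, lay near the 43.1% and 29.2% of all genes. Without MYC_HCC 4 and 5, 8 were lower and 5 higher, and the median log2 change went from -0.73 to -0.25. B2m, the invariant chain of MHC class I, read 554, 500, 443, 1198 and 747 in MYC_HCC and 189, 98 and 77.5 in MYC_OFF (log2 change -2.50, SE 0.33, limma adjusted p = 5.56e-06). The immunoproteasome gene Psmb10 fell from 110 ± 20.7 to 20.8 ± 11.2, and H2-DMa, which loads peptides on class II, rose from 0.89 ± 0.402 to 48.0 ± 27.1. Interferon response genes were lower in 14 of 41 and higher in 5, with 10 and 4 scaling-robust. Their shares lower, 34.1% and 24.4%, were below the 43.1% and 29.2% of all genes. They were above the 24.7% and 15.8% of genes with a mean under 3, the level of this list. Gbp2 and Igtp had log2 changes of -1.60 and -1.87, and Ifi44 had one of 2.22. Of 36 collagen and matrix genes 15 were lower and 6 higher, and 8 and 6 were scaling-robust. Their shares lower, 41.7% and 22.2%, lay near the 39.2% and 24.9% of genes with a mean from 3 to 10. Fn1, fibronectin, fell from 61.9 ± 9.24 to 6.24 ± 4.61, and Fbn1, fibrillin, rose from 0.674 ± 0.638 to 6.58 ± 4.39.

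Among 18 AP-1 and immediate early genes, which answer growth and stress signals, 10 were lower and 4 higher, and 6 and 4 were scaling-robust. The shares lower, 55.6% and 33.3%, compare with 39.2% and 24.9% of genes with a mean from 3 to 10. Jun read 13.5, 15.3, 20.2, 29.7 and 22.6 in MYC_HCC and 0, 0.95 and 0 in MYC_OFF, while MYC_Recur read 10.7, 14.3 and 16.5. MYC_OFF stood apart from both other groups, and the log2 change was -4.04 (SE 0.31, limma adjusted p = 5.87e-08). Jund fell from 37.3 ± 10.8 to 10.1 ± 2.35 and Ier2 from 13.4 ± 1.53 to 4.47 ± 0.5. Klf2, a factor of quiescent cells, rose from 6.79 ± 5.0 to 140 ± 52.0, and the ERK phosphatase gene Dusp6 from 2.93 ± 1.66 to 13 ± 2.86.

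The largest scaling-robust changes are described for genes with a mean of at least 100 in either group, picked so that the groups do not overlap. Among the rises, Robo1, a guidance receptor, read 0.44 to 4.59 in MYC_HCC and 327, 550 and 355 in MYC_OFF. Hist2h3c1, a histone H3 gene with near-identical copies, read 0.06 to 2.73 and then 142, 231 and 227. Tfap4, which encodes the E-box factor AP4 and is a known MYC target, read 15.1, 3.31, 5.37, 12.7 and 19.96 in MYC_HCC and 739, 3603 and 286 in MYC_OFF, but 0.16, 0.09 and 0.17 in MYC_Recur. The spread of Tfap4 within MYC_OFF was wider than the difference between the group means. Cep76, a centriole protein gene, read 3.37 to 11.9 and then 270, 1081 and 997. Among the falls, Ube2c, the ubiquitin-conjugating enzyme of the anaphase-promoting complex, read 217, 200, 216, 101 and 254 in MYC_HCC and 14.1, 3.57 and 3.24 in MYC_OFF. Taldo1, of the pentose phosphate pathway, fell from 118 ± 25 to 4.8 ± 4.57, Btf3, a nascent-chain partner, from 735 ± 133 to 46.7 ± 43.8 and Sf3a2, of the U2 particle, from 107 ± 25.3 to 5.54 ± 4.76. Npm1, nucleophosmin, read 4582, 2199, 2565, 2416 and 4337 in MYC_HCC and 969, 98 and 49.9 in MYC_OFF, but ranged from 364 to 27169 over the 3 MYC_Recur libraries.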

How the data were processed

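RNA-seq of 19 mouse liver tumor libraries was used. The authors deposited 1 table in which each gene symbol has a normalized signal value per library. The submitters' processing notes name Trimmomatic, STAR, Picard, featureCounts, DESeq2 and the genome mm10, without versions. How the signal was normalized, and whether strand was used, is not given in the sources. No counting interval can be given, since depth is unknown. Of 19511 symbols, 25 bare numbers were left out, and 18304 symbols matched mouse gene names. Each gene was tested with limma 3.58.1 (R 4.3.3), allowing the variance to follow the mean level. The fit took log2(value + 1) and 5 group means over the 19 libraries, which left 14 residual degrees of freedom. Tests are two-sided, with Benjamini-Hochberg adjustment over 12087 genes and calls under 0.05. Differences on this scale are too small for genes with low values. Groups are given as mean ± SD, with n of 5 for MYC_HCC and 3 for MYC_OFF unless stated.

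The members and the 51 gene lists were chosen with earlier results of these data known. Named were Myc, the 10 largest scaling-robust rises and falls with a mean of at least 100 and no overlap, per list the defining genes, up to 4 called genes with the smallest p, a mean of at least 5 and no overlap, up to 2 called genes moving the other way, and any member of lists of at most 15. The 4 promoters planned became 2, since no other gene met the rule. Overlapping genes are uncertain, since use of strand is not given. The test was checked on simulated data. The design allowed for a count test only on counts, which the table does not hold. Some single genes are not reported here.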

Additional observations from a re-analysis of the deposited data

Results flagged for a closer look

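Within MYC_HCC, 1 library stood far from the other 4 in 35 of the 253 genes looked at, by a gap larger than Dixon's critical value for 5 libraries. For normally distributed values, chance alone gives such a gap in about 1 of 20 groups. The values were not logged and most genes were picked for their results, so this rate is only a rough guide. MYC_HCC 4 was that library in 29 of them. It was above the rest for Mlxipl (35.2), Mxd4 (17.9), Paox (17.2), Mdh1 (397), Ndufs1 (152), Acsl5 (129), Srebf1 (47.2), Gc (2749), Ttr (1990), Serpina1c (2077), Vtn (657), Cyp2d26 (107), Gstm1 (342), Slc10a1 (206), Igf2 (4736), Mlkl (6.19), Casp1 (6.25), Cldn5 (7.84), Sox18 (5.91), Pecam1 (28.2), Cdh5 (39.3) and Kdr (7.57), where the deposited value is in brackets. It was below the rest for Gnl3 (125), Fbl (145), Yars (30.1), Umps (44.8), E2f4 (34.3), Orc1 (2.66) and Cct2 (206). MYC_HCC 2 was low for Polr3c (7.26) and Hnf4a (68.1). MYC_HCC 3 was high for Rfc1 (62.8) and low for Psmd11 (47.5). MYC_HCC 5 was high for Socs3 (2.82) and Ctsc (19.1). Leaving out MYC_HCC 4 ended the calls of Gnl3 and Azin1 among 240 called genes.

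The change from HCC to OFF was also compared between MYC tumors and MYC/Twist1 tumors by the difference of their log2 changes (limma, adjusted over all genes). It passed in 13 of 12087 genes (0.108%), and 4 of those are named here. The difference, MYC/Twist1 against MYC, was -4.18 for Rsl1 (adjusted p = 0.0254), 3.20 for Xpo4 (0.000509), 2.49 for Jun (0.0303) and -2.19 for Uqcrq (0.0378). Rsl1, a regulator of sex-limited liver genes, had a log2 change of 8.43 in MYC tumors and 4.24 in MYC/Twist1 tumors. Xpo4 was listed at 0 in every library outside MYC_HCC, so no fall could be seen in MYC/Twist1 tumors, and its 3.20 is the change in MYC tumors with the sign turned. Jun had log2 changes of -4.04 in MYC tumors and -1.55 in MYC/Twist1 tumors. Uqcrq changed by 2.45 and 0.26. With the median of ratios the difference no longer passed for Jun (adjusted p = 0.0585) or Uqcrq (0.0929). Group and deposit cannot be told apart in either change.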

How the results depend on the processing

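The number of higher genes moved by more than 1.5 times under 2 rescalings, to 3298 by the median of ratios and 3272 by the upper quartile, and with a filter of at least 5 in 3 libraries (1324, where fewer genes were tested), against 2119 as deposited. No alternative moved the number of lower genes by as much. Leaving out each library in turn gave 1668 to 2180 higher genes, 4550 to 5517 lower genes and log2 changes of Myc from -2.02 to -1.62. With MYC_HCC 4 and 5 both left out, 2011 genes were higher and 5367 lower, and Krt7 (log2 change -0.77) and Hbb-b1 (-0.67), not called before, were lower; the cause was not tested. Of 240 genes called as deposited among the 253 that the naming rule or the text picked, 230 were called the same way in every setting that gave a value. The median of ratios lost 5 of them (Mxd4, Odc1, Srm, Azin1 and Igf2). A fit of MYC_OFF and MYC_HCC alone gave 1892 higher and 4661 lower genes. The labels give both groups replicate numbers. Deviations of libraries with the same number correlated at -0.15, -0.16 and 0.06, and those with different numbers at -0.16 to 0.17. With so few libraries, these values cannot tell whether the numbers pair them. With the replicate number as a block, 2050 genes were higher and 5159 lower, Myc changed by -1.84, and the calls of Gnl3 and Sms were lost. Count tests were not run, since the table holds no counts. Depth is unknown, so what it limits cannot be stated.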
